A study of Mus musculus with 12 samples.

Results

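Dock8 KO and WT CD8+ T cells were compared after a day in collagen gel. The comparison holds 3 libraries of KO cells (KO gel) and 3 of WT cells (WT gel), 6 of the 12 libraries of the series, taken by their genotype and culture labels. All are bulk RNA of activated CD8+ T cells, the killer lymphocytes, from lymph node and spleen of mice, with n = 3 per group in the series' design text. Cells of both genotypes were activated and expanded in culture for 3 days and then embedded for 24 h in bovine collagen at 2 mg/mL, from which they were recovered. The other 6 libraries, WT media and KO media, come from cells that spent those 24 h in media without collagen. No source used here gives the targeted allele, the strain or the age of the mice, or says whether media and gel libraries came from the same mice. By its title, the study asks how Dock8 and actin bear on the shape and the nucleus of migrating T cells.

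DOCK8 is a guanine nucleotide exchange factor of blood cells that switches on the small GTPase CDC42, which works through WASP to build branched actin. T cells without DOCK8 are known to lose control of their shape when they crawl through dense tissue or collagen, and some of them break apart. A nucleus forced through narrow gaps can be strained or ruptured. DNA damage activates the transcription factor p53, which induces the cell cycle inhibitor p21, and DNA in the cytoplasm is read by sensors that induce interferon-stimulated genes.

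Dock8 (chromosome 19, 24999534 to 25202432, GRCm38) stood at 378, 410.5 and 449.6 CPM (counts scaled to a common library size, corrected for library composition) in WT gel libraries 1 to 3 and at 168, 161 and 158 in KO gel. The groups did not overlap, which matches the labels. The KO level was lower by a factor of 2.54 (log2 fold change −1.35, SE 0.09, adjusted p 8.44e-07). Every adjusted p given here comes from the edgeR quasi-likelihood test, adjusted over all tested genes by the method of Benjamini and Hochberg. Counts per gene do not tell whether the remaining transcript can be translated.

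The 6 gel libraries held 28483064 to 39710270 counts assigned to genes. The KO gel libraries stood apart from the other 9 in several measures of the whole library, shown in the plot of library measures. At equal depth they had counts on 30104, 28362 and 29239 genes, against 24758, 24336 and 24734 in WT gel. Satellite-like gene models, which lie in repeats that are mostly silent, took 4810, 909 and 1930 CPM (here of all counts, with no correction for composition) against 110.0, 78.4 and 68.8. Olfactory receptor genes, not used by T cells, took 36.3, 23 and 26.1 on the same scale against 12.9, 8.88 and 10.5, and mitochondrially encoded transcripts 2.32, 2.27 and 2.61% of counts against 1.41, 1.64 and 1.59% (1.34 to 2.31% in media). For each measure an exact permutation of the 6 gel libraries, two-sided, gave p = 0.1, and 3 against 3 cannot go lower. WT gel library 2 was rich in loci that resemble ribosomal RNA (126000 on that scale, against 49600 to 71700 in the other gel libraries). In bulk RNA, fewer cells of a type and less RNA per cell cannot be told apart.

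**Figure D1:**
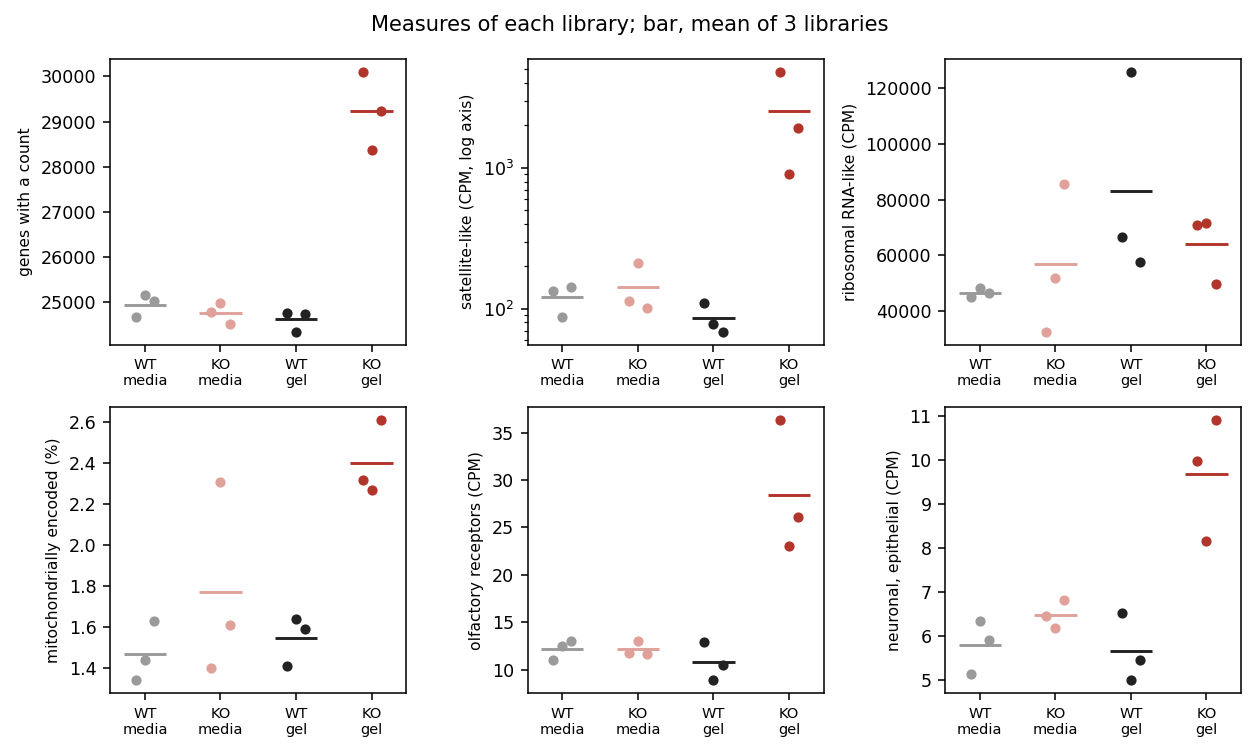
Measures of the 12 libraries by group: genes with a count when all libraries are brought to 28483064 counts, CPM, not corrected for composition, of satellite-like gene models (log axis), ribosomal RNA-like loci, olfactory receptors and silent neuronal or epithelial genes, and the percent of counts that are mitochondrially encoded. Points are libraries and bars the mean of 3. The KO gel libraries lie above all 9 others for genes with a count, satellite-like models, olfactory receptors and silent genes. Some neuronal or epithelial genes listed as silent had counts in every library.

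Of 19010 genes tested, 2819 (14.8%) were called at an adjusted p under 0.05, 1354 higher in KO gel (7.12%) and 1465 lower (7.71%). Counts of list members below are to be read beside these shares. The higher and the lower genes differed in size and in level. The median fold was 2.02 among higher genes and 1.28 among lower ones, and a change of at least 2-fold was seen in 684 higher genes and 33 lower ones. Below a mean log2 CPM of 0, 574 of 4456 genes were higher and 17 lower, whereas at 6 and above 131 of 3352 were higher and 578 lower. A scarce gene that passed the filter only through its KO gel level could only be higher. The split at low levels, by size and by annotated type is therefore a description, and how many genes passed in this way is not given. The lean to lower calls at high levels depended on the set of genes fitted: the 9908 genes whose mean log2 CPM reached 3 gave 404 higher and 1311 lower calls, but a fit of these genes alone gave 768 and 725. By annotated type, gene models annotated as still to be tested by experiment (138 higher and 4 lower of 973), long intergenic RNAs (50 and 2 of 480) and antisense RNAs (36 and 4 of 473) leaned higher, and protein-coding genes gave 984 and 1239 of 12522. The strand setting of the authors' counting is not given, so reads of a gene and of its antisense partner may be mixed.

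The split depends on scaling. With total counts alone in place of composition scaling, the median of all genes moved from −0.00032 to 0.102 on the log2 scale, and the calls became 1875 higher and 407 lower (82.2% higher, against 48.0%). All log2 fold changes given here are relative to the composition-scaled median. The count of calls fell to 1609, 1776 and 1857 without KO gel libraries 1, 2 and 3, and to 1842 without WT gel library 2. The part of the library measures above in these counts was not tested.

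**Figure D2:**
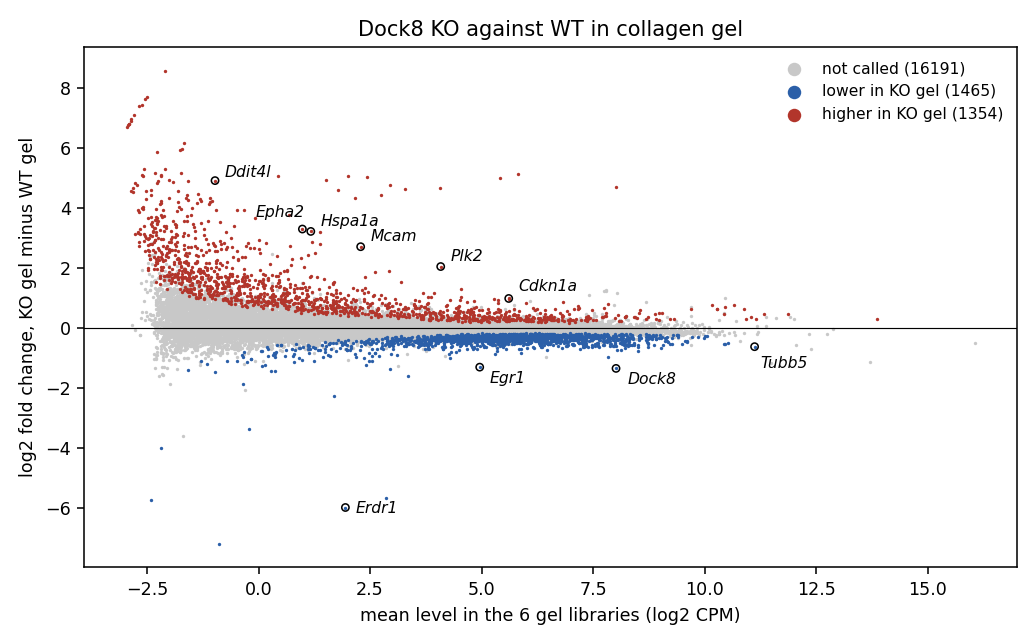
Each of the 19010 tested genes by its mean level in the 6 gel libraries (log2 CPM) and its log2 fold change, KO gel minus WT gel. Red points are the 1354 genes called higher, blue the 1465 called lower, gray the rest. Large rises gather at low levels, and the many falls at higher levels are small, with Dock8 and Egr1 among the exceptions. A fit restricted to genes whose mean log2 CPM reached 3 called 768 higher and 725 lower. Scarce genes that passed the filter only through their KO gel level could only be higher.

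Targets of p53, the transcription factor that responds to DNA damage, were called higher in 17 of 36 tested members and lower in 2, with a median log2 fold change of 0.23. The share over all genes was 7.12% higher and the median −0.00032. Leading members were Plk2, a polo-like kinase, Cdkn1a, which encodes p21, and the receptor gene Eda2r, while the 2 lower members were Trp53, the gene of p53 itself, and Ddb2, a sensor of ultraviolet damage, named after their values were seen. In media the median of the same list was 0, and 11 members had a genotype difference that was larger in gel than in media by the test of that difference.

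Plk2 (chromosome 13, 110395046 to 110400844) stood at 8.03, 9.87 and 7.25 CPM in WT gel and 30.3, 34.5 and 38.7 in KO gel. The groups did not overlap, and the change was 4.14-fold (log2 2.05, SE 0.13, adjusted p 3.66e-07), against −0.48 (adjusted p 0.329) in media. Cdkn1a (chromosome 17, 29090976 to 29100727) stood at 35.4, 40.01 and 29.2 CPM in WT gel and 62.5, 67.4 and 76.7 in KO gel, also with no overlap. It rose 1.98-fold (log2 0.99, SE 0.16, adjusted p 0.00169); its difference between the cultures was 0.81 and did not pass the test (adjusted p 0.0727).

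Ercc5, a nuclease of nucleotide excision repair, gave 35.8, 33.6 and 33.6 CPM in WT gel and 53.7, 50.7 and 51.6 in KO gel (log2 0.60, SE 0.06, adjusted p 5.47e-05). Mdm2, the ubiquitin ligase that limits p53 and that was named after its values were seen, gave 87.6, 95.3 and 91.5 against 131, 124 and 134 CPM (log2 0.51, SE 0.06). Pmaip1, the BH3-only death gene also called NOXA, gave 26.7, 31.1 and 27.8 against 44.4, 42.1 and 45.01 CPM (log2 0.62, SE 0.08). All 3 genes had every KO library above every WT library.

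Eda2r and Ddit4l were scarce in WT gel. Eda2r, a receptor of the TNF receptor family, stood at 0.471, 0.279 and 0.277 CPM in WT gel and 2.16, 2.65 and 3.09 in KO gel (log2 2.92, SE 0.27, adjusted p 2.2e-05). Ddit4l, an inhibitor of mTOR signalling, stood at 0.0554, 0.0796 and 0.0756 and 1.82, 2.57 and 2.14 CPM (adjusted p 8.82e-06), where the WT values rest on a few counts and no fold is given. Both lie at levels where silent genes were also higher in KO gel. Ddit4l had few counts outside KO gel, and a gene that passed the filter only through its KO gel level had to differ. Its adjusted p is therefore a description, and it is counted among the called members of the list. Plk2, Cdkn1a, Ercc5, Mdm2 and Pmaip1 lay at 7 CPM or more in every gel library. The part of the library measures in the rise of this list was not tested.

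Genes of the cell cycle were lower. In the S phase list 35 of 36 members fell and 0 rose (all genes, 7.71% lower), with a median of −0.50. Of 33 genes of G2 and mitosis, 27 fell and 0 rose (median −0.34), and of 27 G1 regulators 12 fell and 2 rose (median −0.13). In media the medians were 0.02, −0.10 and −0.03. The difference between the cultures was called for 30 S phase genes and 4 genes each of the other lists, all lower in gel (all genes, 1.45% lower). These calls depended on the setting. Over all genes only 24 lower differences were called with total counts as the scaling. Only 2 were called without the WT gel library and the KO media library richest in ribosomal RNA-like loci. Most calls of these lists were thus absent without those libraries. With media and gel libraries of one genotype and number as a block, chosen after seeing the data, 1879 genes had a called lower difference.

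Cdc6, which loads the replicative helicase onto DNA, stood at 93.5, 91.2 and 89.5 CPM in WT gel and 53.4, 62.4 and 58.2 in KO gel. The groups did not overlap (log2 −0.66, SE 0.07, adjusted p 5.32e-05), and the media means were 86.6 in WT and 86.2 in KO. Tk1, the thymidine kinase of the salvage pathway, gave 85.99, 78.7 and 80.8 CPM against 46.6, 53.6 and 54.6 (log2 −0.67, SE 0.07). Ccne1, the cyclin that drives entry into S phase, gave 65.99, 64.2 and 64.5 CPM against 43.8, 47.03 and 46.7 (log2 −0.50, SE 0.05), and Prim1, the primase subunit, 93.7, 94.9 and 95.9 against 63.1, 66.7 and 68.3 (log2 −0.52). All 4 genes had the 3 KO gel libraries below the 3 WT gel ones. Outside the list, Cdca5 (sororin, which holds sister chromatids together) and Tcf19 fell by 0.69 and 0.82 on the log2 scale.

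Among mitotic genes, Aurkb, the Aurora B kinase, gave 156, 145 and 149 CPM in WT gel and 96.5, 99.8 and 107 in KO gel (log2 −0.57, SE 0.06, adjusted p 8.17e-05). Birc5, its partner survivin, had a log2 fold change of −0.49 (SE 0.06) and Cdk1, the mitotic kinase, of −0.44 (SE 0.06). The fall was smaller than in S phase genes by median. Scaled by total counts, 8 of the 33 mitotic and 28 of the 36 S phase genes were lower.

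The G1 list holds drivers and brakes of the cycle. Cdk2, a kinase of the G1/S switch, gave 101, 92.6 and 95.2 CPM against 63.9, 66.8 and 65.3 (log2 −0.56, SE 0.06, adjusted p 8.39e-05), and the transcription factor gene E2f1 gave 34.9, 33.5 and 31.1 against 20.1, 23.5 and 23.1 (log2 −0.58, SE 0.08). E2f3 (−0.38) and Mxd3, a MAX-binding repressor (−0.56), fell as well, and the 2 members that rose were Cdkn1a and Ccnd1, cyclin D1 (log2 1.93, adjusted p 0.0347, named after its value was seen), at under 1 CPM. Ccnd1 was not called when any 1 of the 6 gel libraries was left out (adjusted p 0.0614 to 0.114), or without WT gel library 2 and KO media library 3 (0.132). The count of 12 lower members was 5, 7 and 6 without KO gel libraries 1, 2 and 3, 6 without WT gel library 2, and 4 with total counts as the scaling.

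Of 67 replication-dependent histone symbols, a class formed after the values were seen, 55 were lower and 1 higher (median −0.55, and −0.11 in media). Histone genes share sequence, so counts of single members are uncertain. Of 23 tubulin and microtubule genes 7 fell and 1 rose. Tubb5, the main β-tubulin gene of dividing cells, went from 2678, 2726 and 2893 CPM in WT gel to 1754, 1760 and 1875 in KO gel (log2 −0.62, SE 0.07, adjusted p 0.000143), and Tuba1b, an α-tubulin gene with close copies, had −0.61 (SE 0.08). Of 32 genes of the DNA damage response 9 fell and 2 rose (4 and 4 with total counts), and the repair genes Brca1 (−0.59, SE 0.09) and Fancd2 (−0.46, SE 0.07), which act during replication, were among the lower.

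To show what letters precede some of these genes, 250 bases upstream of RefSeq starts (GRCm38.p6, first listed start of a gene) were searched on both strands for TTTGGCGC or TTTCGCGC, letters that E2F factors bind. A match was present in 4 of 29 S phase genes with an entry (13.8%), in 1 of 27 mitotic genes and in 182 of all 27025 promoters (0.673%). Mcm5 and Mcm6, subunits of the replicative helicase, are shown because their windows hold overlapping matches, in capitals; they were chosen for these matches after their values were seen. The sequences run 5′ to 3′ on the gene's strand, Mcm5 at chr8:75109259-75109508 (plus strand) and Mcm6 at chr1:128359706-128359955 (minus strand).
Mcm5: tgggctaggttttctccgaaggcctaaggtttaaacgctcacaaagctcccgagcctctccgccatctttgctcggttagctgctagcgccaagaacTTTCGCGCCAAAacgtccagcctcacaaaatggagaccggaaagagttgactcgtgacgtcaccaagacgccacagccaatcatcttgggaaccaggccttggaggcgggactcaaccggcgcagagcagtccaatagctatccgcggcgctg
Mcm6: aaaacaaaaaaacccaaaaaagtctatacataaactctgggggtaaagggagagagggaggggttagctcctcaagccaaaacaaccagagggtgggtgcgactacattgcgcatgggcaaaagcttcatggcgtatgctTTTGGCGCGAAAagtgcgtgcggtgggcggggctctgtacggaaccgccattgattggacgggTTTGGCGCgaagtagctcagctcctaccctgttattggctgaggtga
Mcm5 gave 376, 339.6 and 318 CPM in WT gel and 215, 259.6 and 252 in KO gel (log2 −0.51, SE 0.09, adjusted p 0.00213). Mcm6 gave 364, 356 and 303 CPM against 209.98, 258 and 240.1 (log2 −0.53, SE 0.10, adjusted p 0.00236). Neither gene's KO libraries overlapped its WT libraries, and the match is a description of the letters, not evidence of binding.

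Interferon-stimulated genes, the antiviral program, were called higher in 20 of 43 tested members and lower in 0 (median 0.36, against −0.11 in media). Of 19 guanylate-binding proteins and related GTPases, which attack microbes inside cells and are induced by interferon γ, 14 rose and 0 fell (median 0.61, against −0.23 in media), and all 19 had KO gel libraries that did not overlap WT gel libraries (38.2% of all genes). MHC class I and peptide loading genes, which interferon also induces, gave 0 higher and 1 lower of 19. Members of the Gbp, Ifit and Tgtp families share sequence, so their counts can be exchanged between copies.

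Ifit1, which binds viral RNA, stood at 1.52, 1.43 and 1.13 CPM in WT gel and 4.54, 3.97 and 4.66 in KO gel. It rose 3.23-fold with no overlap (log2 1.69, SE 0.17, adjusted p 4e-05), while the media means were 2.09 in WT and 2.02 in KO. Mx1, an antiviral GTPase, gave 8.36, 9.20 and 7.33 CPM against 13.2, 15.8 and 18.3 (log2 0.93, SE 0.13, adjusted p 0.000383). Ifit1bl1, a relative of Ifit1, had a log2 fold change of 0.59 (SE 0.10) and Slfn8, a Schlafen family gene, of 0.54 (SE 0.10). Cxcl10, the chemokine that attracts CXCR3-bearing T cells, was scarce, at 0.443, 0.876 and 0.327 CPM in WT gel and 1.72, 1.30 and 1.77 in KO gel (log2 1.61, SE 0.33, adjusted p 0.00518).

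Gbp7 gave 59.8, 62.5 and 55.8 CPM in WT gel and 88.6, 90.9 and 91.6 in KO gel (log2 0.61, SE 0.09, adjusted p 0.000546). Gbp5 gave 22.1, 23.3 and 20.6 against 34.2, 32.98 and 33.5 CPM (log2 0.61, SE 0.09) and Gbp2 110.1, 121 and 113 against 179.7, 163 and 191 CPM (log2 0.63, SE 0.13). The WT media means of these 3 genes were 84.7, 28.8 and 162 CPM, and WT gel had the lowest mean of the 4 groups for each. Ciita, the master regulator of MHC class II, was scarce at 0.277, 0.279 and 0.353 against 1.21, 1.75 and 1.47 CPM (log2 2.26, SE 0.31).

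Without KO gel libraries 1 and 3 the 20 interferon-stimulated genes called became 10 and 9, and without WT gel libraries 1 and 3 they became 11 and 13. The guanylate-binding protein count stayed between 11 and 18 with each of the 12 libraries left out. Of the genes that sense nucleic acids or act in NF-κB signalling, 4 rose and 3 fell of 23, and the 4 became 2 or 1 without any 1 of the 6 gel libraries or KO media library 1. Tnfaip3, the NF-κB brake A20, gave 102, 93.8 and 102 CPM in WT gel and 138, 119.96 and 133 in KO gel (log2 0.39, SE 0.08, adjusted p 0.00459), with media means of 77.1 in WT and 62.6 in KO.

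The core that interferon-activated factors bind, GAAA followed by 2 bases of any kind and GAAA again, was searched in the same upstream windows on both strands. It was present in 16 of 32 interferon-stimulated genes with an entry (50.0%), in 9 of 11 guanylate-binding protein genes (81.8%), in 0 of 29 S phase genes and in 821 of 27025 promoters (3.04%). Among called genes, 11 of 14 and 7 of 8 held a match. Ifit1 (chr19:34640639-34640888, plus strand), Gbp2 (chr3:142620413-142620662, plus strand) and Cxcl10 (chr5:92348890-92349139, minus strand) are shown because they rose and hold a match, given in capitals.
Ifit1: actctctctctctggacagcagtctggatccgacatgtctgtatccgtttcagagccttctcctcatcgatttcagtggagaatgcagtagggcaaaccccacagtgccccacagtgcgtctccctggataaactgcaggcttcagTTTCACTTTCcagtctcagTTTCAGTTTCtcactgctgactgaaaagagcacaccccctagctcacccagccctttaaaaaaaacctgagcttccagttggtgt
Gbp2: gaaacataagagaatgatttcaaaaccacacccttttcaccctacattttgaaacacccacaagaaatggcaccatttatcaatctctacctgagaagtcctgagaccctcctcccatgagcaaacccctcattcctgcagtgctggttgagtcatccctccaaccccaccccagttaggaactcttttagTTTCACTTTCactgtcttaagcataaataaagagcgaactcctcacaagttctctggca
Cxcl10: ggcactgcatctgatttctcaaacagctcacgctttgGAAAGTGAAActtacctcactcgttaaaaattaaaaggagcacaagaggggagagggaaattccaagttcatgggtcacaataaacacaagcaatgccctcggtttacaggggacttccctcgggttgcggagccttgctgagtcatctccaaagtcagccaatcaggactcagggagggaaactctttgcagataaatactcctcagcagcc
A match says only that the letters are there.

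**Figure D3:**
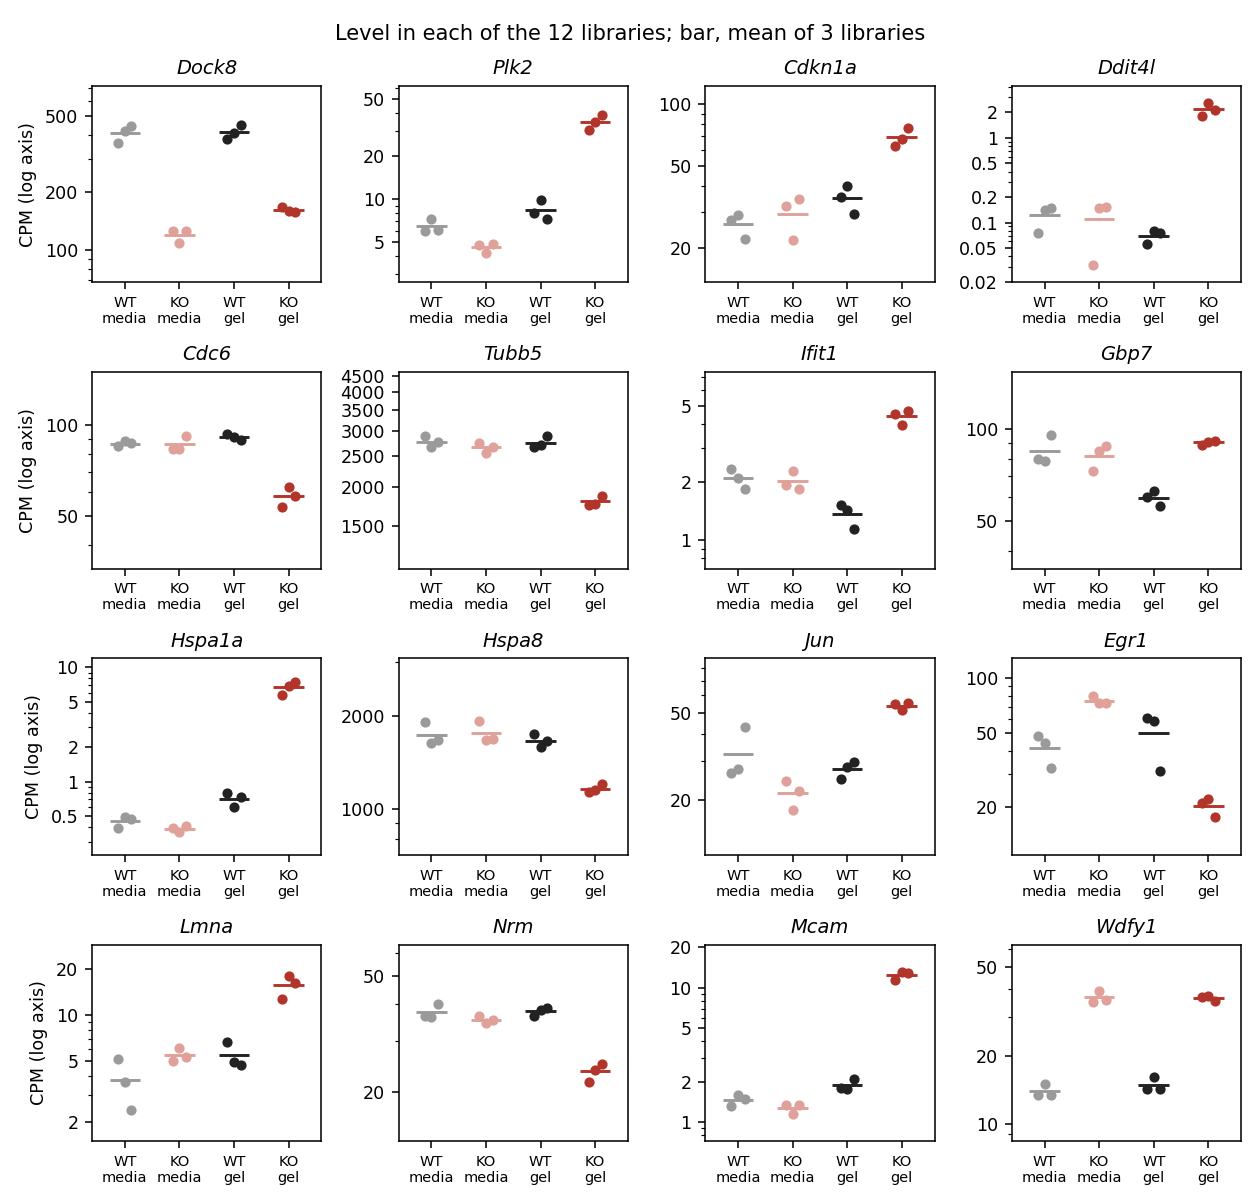
CPM in each of the 12 libraries (log axis) for 16 genes; points are libraries and bars the mean of 3. In Plk2, Ddit4l, Hspa1a and Mcam the KO gel libraries lie above all others, in Cdc6, Tubb5, Hspa8 and Nrm below all others, and in Gbp7 the WT gel libraries are the low group. Wdfy1 and Dock8 differ between the genotypes in both cultures.

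Of 24 heat shock and chaperone genes 2 rose and 2 fell (median 0.01), near the shares over all genes (7.12% and 7.71%), and with total counts 5 were higher and 2 lower. The inducible HSP70 genes Hspa1a and Hspa1b rose, and the constitutive chaperone genes Hspa8 and Hsp90ab1 fell. Hspa1a (chromosome 17, 34969190 to 34972156) stood at 0.803, 0.597 and 0.730 CPM in WT gel and 5.78, 6.92 and 7.48 in KO gel (9.32-fold, log2 3.22, SE 0.17, adjusted p 1.18e-07). Hspa1b gave 0.831, 0.637 and 1.01 and 8.08, 7.64 and 7.86 CPM (log2 3.22, SE 0.19); the genes are near copies, and reads may be exchanged between them. Neither overlapped between the groups, and in media their mean levels were below 1 CPM in both genotypes. Hspa8 went from 1753, 1589 and 1654 CPM to 1134, 1150 and 1204 (log2 −0.52, SE 0.08, adjusted p 0.00127) and Hsp90ab1 from 1759, 1793 and 1569 to 1026, 1242 and 1246 (log2 −0.54, SE 0.09).

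Targets of ATF4, the factor of amino acid and integrated stress, rose in 9 of 28 and fell in 0 (median 0.22). Atf4 itself gave 90.03, 83.5 and 75.01 CPM in WT gel and 105.3, 109 and 104.8 in KO gel (log2 0.36, SE 0.07, adjusted p 0.00399). Ddit3, the stress factor CHOP, gave 6.98, 7.80 and 7.73 against 11.8, 11.4 and 11.6 CPM (log2 0.63, SE 0.12), Sesn2, an mTOR brake shared with the p53 list, had 0.52 (SE 0.12), and Chac1, which breaks down glutathione, rose from 0.526, 0.796 and 0.428 to 1.98, 1.598 and 2.24 CPM. The count of 9 was 5 without KO gel library 2 and 5 without WT gel library 3. Of 23 genes of the unfolded protein response 2 rose and 1 fell, near the same shares; Ern1, the sensor IRE1α, had a log2 fold change of 0.51 (SE 0.09, adjusted p 0.00276). Prdx4, a peroxiredoxin of the endoplasmic reticulum, fell from 28.4, 24.7 and 24.6 to 13.3, 15.98 and 13.3 CPM (log2 −0.87, SE 0.11, adjusted p 0.000237), and of 28 antioxidant genes 3 rose and 3 fell (5 and 1 with total counts, and 0 and 1 without WT gel library 2 and KO media library 3).

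Immediate early genes, switched on within minutes of a signal, went both ways, with 8 higher and 5 lower of 37 (7.12% and 7.71% over all genes). Jun, a subunit of the AP-1 factor, gave 25.01, 28.3 and 29.8 CPM in WT gel and 54.97, 51.3 and 55.3 in KO gel (log2 0.96, SE 0.16, adjusted p 0.00186), and its media means were 32.4 in WT and 21.5 in KO. Egr1, a target of SRF and of MAP kinase signalling, gave 60.7, 58.2 and 31.2 CPM in WT gel and 21.01, 22.1 and 17.5 in KO gel (log2 −1.30, SE 0.23, adjusted p 0.00355), while in media KO cells held 79.8, 72.9 and 73.3 and WT cells 48.6, 44.5 and 32.6. Jun and Egr1 thus had genotype differences of opposite sign, and for each the difference between the cultures was called (1.55, adjusted p 0.00612, and −2.15, adjusted p 0.0088). Nr4a3, an orphan nuclear receptor induced by the T cell receptor, rose by 0.85 (SE 0.13), Fosl2 by 0.50 and Ier5 by 0.43. Egr2, at −0.88 (adjusted p 0.0279), missed the threshold when any of KO gel libraries 1, 2 and 3 or WT gel libraries 1 and 2 was left out (adjusted p 0.075, 0.0612, 0.092, 0.124 and 0.0727), with total counts (0.0508) and without WT gel library 2 and KO media library 3 (0.0929). Of 16 tested targets of SRF and MRTF, factors that read the pool of free actin, 4 fell and 0 rose, which became 1 or 2 without KO gel library 1, 2 or 3 or WT gel library 1 or 2, and 1 when scaled by total counts. The 5 lower immediate early genes became 1 to 3 without these same libraries.

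Of 20 genes of the lamina and the LINC complex, which ties the nucleus to the cytoskeleton, 6 fell and 1 rose (median −0.20; −0.09 with 2 lower when scaled by total counts, and 10 lower without WT media library 1). Lmna, which encodes lamins A and C, the part of the lamina that makes a nucleus rigid, was the one that rose, from 6.67, 4.94 and 4.74 CPM in WT gel to 12.8, 18.1 and 16.2 in KO gel (chromosome 3, log2 1.52, SE 0.22, adjusted p 0.000712). Its difference between the cultures was 0.98 and was not called (adjusted p 0.106; 0.000786 with media and gel libraries of one number paired within a genotype). The B-type lamin gene Lmnb2 went from 44.6, 42.2 and 39.6 to 27.7, 32.6 and 32.6 CPM (log2 −0.45, SE 0.08, adjusted p 0.00191). Nrm, the inner membrane protein nurim, went from 36.6, 38.3 and 38.8 to 21.7, 23.9 and 25.04 CPM (log2 −0.68, SE 0.07, adjusted p 5.08e-05), and Lbr, the lamin B receptor, had −0.33 (SE 0.06; adjusted p 0.118 with total counts). In all 4 genes the groups did not overlap. Of 22 ESCRT and envelope repair genes 0 rose and 1 fell, Cgas, which is also in the list of nucleic acid sensing genes. With total counts 0 of the 22 were lower.

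In the list of DOCK8 partners and Hippo kinases 1 of 20 rose and 1 fell, near the shares over all genes (7.12% and 7.71%). Was, the gene of WASP, gave 119, 115 and 113 CPM in WT gel and 91.1, 90.3 and 91.97 in KO gel (log2 −0.34, SE 0.08, adjusted p 0.0139); with total counts as the scaling it had −0.24 (adjusted p 0.115), and without WT gel library 2 and KO media library 3 the adjusted p was 0.0635. Stk3, the Hippo kinase MST2, had 0.37 (SE 0.11, adjusted p 0.0394) and was not called without KO gel library 1, 2 or 3, WT gel library 1 or 3, KO media library 1 or WT media library 2 (adjusted p 0.051 to 0.135).

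Of 26 actin nucleation genes 2 rose and 4 fell; the 4 became 0 without any KO gel library, 1, 1 and 2 without WT gel libraries 1, 2 and 3, 8 without WT media library 1 and 2 without WT media library 2. Over all genes 7.12% were higher and 7.71% lower, and the lower share grew with level. It was 11.2% at a mean log2 CPM of 3 to 6 (median −0.06) and 17.2% at 6 and above (median −0.09). Of 44 genes of actin filaments and myosin, 42 of them at a mean log2 CPM of at least 3, 1 rose and 7 fell (median −0.10). The small falls depended on scaling and on single libraries: with total counts 2 filament genes were higher and 1 lower (median 0.01), and the 7 lower became 3 without KO gel library 1, 3 without KO gel library 3 and 4 without WT gel library 2. Gsn, the severing protein gelsolin, gave 73.7, 67.2 and 74.1 CPM in WT gel and 54.4, 49.6 and 51.9 in KO gel (log2 −0.46, SE 0.09, adjusted p 0.00315). Myo1g, a membrane myosin of lymphocytes, had −0.29 (SE 0.06) and the crosslinker gene Actn4 −0.30 (SE 0.07), and neither was called with total counts (adjusted p 0.195 and 0.19), nor Actn4 without WT gel library 2 and KO media library 3 (0.0518). Flna, filamin A, had −0.28 (adjusted p 0.0175) and was not called without KO gel library 1 or 3 or WT gel library 2 (adjusted p 0.0755, 0.0569 and 0.0572), with total counts (0.257) or without WT gel library 2 and KO media library 3 (0.0874). The member that rose was Fscn1, the bundling protein fascin, from 0.222, 0.159 and 0.252 to 1.40, 1.25 and 1.65 CPM (log2 2.71, SE 0.33, adjusted p 0.000207), at a level where silent genes were higher too.

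Adhesion and guidance genes were called in both directions. Mcam, an adhesion molecule of the immunoglobulin family also called CD146 (chromosome 9, 44134469 to 44142727), stood at 1.80, 1.75 and 2.09 CPM in WT gel and 11.3, 13.1 and 12.8 in KO gel. The change was 6.55-fold (log2 2.71, SE 0.13, adjusted p 5.41e-08), with −0.19 (adjusted p 0.784) in media and a called difference between the cultures of 2.90 (SE 0.19, adjusted p 9.01e-06). Of the 34 integrins and adhesion genes 2 rose, Mcam and Icam1 (0.39, SE 0.08; adjusted p 0.0523 without WT gel library 2 and KO media library 3), and 9 fell, 3 with total counts as the scaling and 4 without KO gel library 3. Itgb3, the β3 integrin, went from 151, 144 and 147 to 108, 115 and 113 CPM (log2 −0.39, SE 0.06, adjusted p 0.00092), and its difference between the cultures was −0.10 (adjusted p 0.528).

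Of 22 plexins, semaphorins, ephrins and other guidance genes 6 rose and 2 fell. Plxna1, a semaphorin coreceptor, gave 9.42, 9.87 and 6.67 CPM in WT gel and 16.7, 21.4 and 20.5 in KO gel (log2 1.18, SE 0.15, adjusted p 0.000268). Epha2, an ephrin receptor, gave 0.554, 0.916 and 0.428 against 5.65, 5.29 and 7.06 CPM (log2 3.30, SE 0.23, adjusted p 1.26e-06). Efnb2, an ephrin ligand, rose from 0.554, 0.597 and 0.982 to 2.59, 2.45 and 2.24 CPM and Robo3, a Slit receptor of neurons, from 0.554, 0.398 and 0.252 to 2.53, 3.15 and 2.84 (adjusted p 0.000506 and 0.000252). All 4 genes had no overlap between the groups, and the last 3 were near or below 1 CPM in WT gel. Among pericellular proteases and matrix genes 7 rose and 3 fell of 24 tested, of 32 in the list, against 7.12% higher and 7.71% lower over all genes. With total counts 7 were higher and 0 lower, and without both libraries rich in ribosomal RNA-like loci (WT gel library 2 and KO media library 3) 4 and 1. Fn1, fibronectin, stood at 0.111, 0.239 and 0.101 against 0.686, 0.824 and 0.748 CPM, and Adam19, a shedding protease at a high level, fell from 222, 223 and 214 to 172, 174 and 175 (log2 −0.34, SE 0.06, adjusted p 0.00184, and 0.0753 with total counts). For the scarce genes the olfactory receptor and silent gene levels above moved in the same direction, and their part was not tested.

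Markers of CD8 T cells were detected at high levels in both genotypes. Of 13 CD8 T cell markers 0 rose and 2 fell, Nkg7 and the T cell receptor gene Trac (472 CPM on average in WT gel and 399 in KO gel). Most leaned lower: 12 of the 13 lay below 0, and 10 had no overlap between the groups (38.2% of all genes). The list median was −0.16, and −0.05 with 1 lower when scaled by total counts. Their summed level was 4950 to 5280 CPM in WT gel and 4480 to 4530 in KO gel. Cd8a, a chain of the CD8 coreceptor, was named after its values were seen. It gave 625, 634 and 736 CPM in WT gel and 619.95, 561 and 604 in KO gel (log2 −0.16, adjusted p 0.295), which did not pass the test. Of 31 T cell receptor signalling genes 4 fell and 0 rose (2 without KO gel library 1, 2 or 3 or WT gel library 2 or 3, and 0 with total counts), and of 27 cytotoxic effectors 3 fell and 1 rose. Over all genes 7.71% were lower and 7.12% higher. Nkg7, a granule protein of killer cells, gave 132, 127 and 131 CPM in WT gel and 93.9, 96.2 and 100 in KO gel (log2 −0.43, SE 0.07, adjusted p 0.000969).

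Of 24 cytokines and chemokines tested 4 rose and 0 fell, all at low levels. Ifng, interferon γ, gave 1.33, 0.756 and 0.806 CPM in WT gel and 2.06, 2.37 and 2.72 in KO gel (log2 1.29, SE 0.22, adjusted p 0.00171), and Csf1, the macrophage growth factor, 0.969, 0.557 and 0.806 against 2.27, 1.85 and 2.79 (log2 1.54, SE 0.25). Of 39 cytokine receptor and feedback genes 3 rose and 4 fell, near the shares over all genes (7.12% and 7.71%). Lrrc32, which tethers latent TGF-β to the cell surface, fell from 10.3, 12.8 and 13.8 to 4.41, 5.07 and 4.89 CPM (log2 −1.36, SE 0.17, adjusted p 0.000207). Il4ra, the interleukin-4 receptor, had −0.36 (SE 0.06; adjusted p 0.0772 with total counts) and Il6st, the shared receptor chain gp130, 0.64 (SE 0.14; adjusted p 0.0542 without WT gel library 2 and KO media library 3). Zfp683, the residency factor Hobit, was lower, at 1.72, 2.11 and 2.39 against 0.660, 0.774 and 0.848 CPM (log2 −1.44, SE 0.22, adjusted p 0.000942). In media Lrrc32 had −0.70 and Zfp683 −0.66, neither called (adjusted p 0.171 and 0.373).

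Of 25 chemokine and egress receptor genes 4 rose and 4 fell (4 and 0 with total counts), and the 4 that rose encode RGS proteins, which shorten signals of G protein-coupled receptors. Rgs1 gave 9.91, 11.6 and 9.27 CPM in WT gel and 20.7, 21.3 and 20.7 in KO gel (log2 1.03, SE 0.09, adjusted p 1.1e-05), with no overlap. Rgs16 rose by 1.06 (SE 0.19) and Rgs2 by 0.87 (SE 0.17). Cxcr4, the receptor of CXCL12, fell from 69.8, 72.6 and 77.98 to 53.9, 56.1 and 58.8 CPM (log2 −0.38, SE 0.07, adjusted p 0.00177), and with total counts as the scaling it had −0.28 (adjusted p 0.0504). Among 28 inhibitory and costimulatory receptors 1 rose and 3 fell, beside 7.12% higher and 7.71% lower of all genes. Cd274, the checkpoint ligand PD-L1 that interferon induces, gave 14.2, 14.9 and 13.3 CPM against 23.3, 22.8 and 24.5 (log2 0.73, SE 0.11, adjusted p 0.000728). Cd160 and Entpd1 (CD39), both of chronically stimulated CD8 T cells, fell by 0.62 and 0.70 on the log2 scale, and Entpd1 was not called without WT gel library 2 and KO media library 3 (adjusted p 0.052).

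Metabolic genes leaned lower. Of 33 glycolysis and hypoxia genes 8 fell and 0 rose (median −0.29), of 35 cholesterol and fatty acid synthesis genes 9 fell and 0 rose (median −0.28), and of 36 lysosomal genes 11 fell and 1 rose (median −0.15). Over all genes 7.71% were lower, with 11.2% at a mean log2 CPM of 3 to 6 and 17.2% at 6 and above. With total counts as the scaling 2, 2 and 1 of them were lower, and the medians stayed negative (−0.19, −0.18 and −0.05). A fit of only genes at a mean log2 CPM of at least 3 gave 2 of 29, 5 of 32 and 5 of 35 lower. In that fit 3 lysosomal genes were higher, and the medians were −0.22, −0.19 and −0.07. The 8 glycolysis genes became 1 or 2 without KO gel library 1, 2 or 3 or WT gel library 1 or 2, the 9 lipid genes 5 without WT gel library 1, and the 11 lysosomal genes 7, 5 and 7 without KO gel libraries 1, 2 and 3 and 7 without WT gel library 1. Fads1, a desaturase of polyunsaturated fatty acids, gave 55.6, 55.3 and 57.6 CPM in WT gel and 35.7, 33.8 and 38.5 in KO gel (log2 −0.64, SE 0.06, adjusted p 2.68e-05), and Scd2, a stearoyl-CoA desaturase, 540.3, 483 and 391 against 263, 297 and 279 (log2 −0.75, SE 0.13). Both had groups that did not overlap. Slc2a1, the glucose transporter GLUT1, went from 62.1, 57.04 and 45.7 to 36.9, 38.1 and 36.4 CPM (log2 −0.56, SE 0.11, adjusted p 0.00311). Gpnmb, a lysosomal membrane protein, fell by 0.97 (SE 0.21).

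Genes of oxidative phosphorylation lie in the nucleus and in mitochondrial DNA. Of 47 nuclear subunit genes 1 fell, Uqcrfs1 of complex III (−0.49, SE 0.10), and 0 rose (median −0.16). Of 15 mitochondrially encoded transcripts 6 rose and 0 fell (median 0.59, and 0.29 in media); the 6 became 3 without KO gel library 1 or 3 or WT gel library 1 or 3, and 10 without KO media library 2. mt-Co2, a cytochrome oxidase subunit, stood at 866, 1109 and 1024 CPM in WT gel and 1489, 1459.8 and 1721 in KO gel (log2 0.64, SE 0.12, adjusted p 0.00353). Igfbp4 (−1.001) and Myadm (−0.90) were among the other large falls, and Arrdc3, an arrestin-like adaptor, among the other large rises (0.94).

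**Figure D4:**
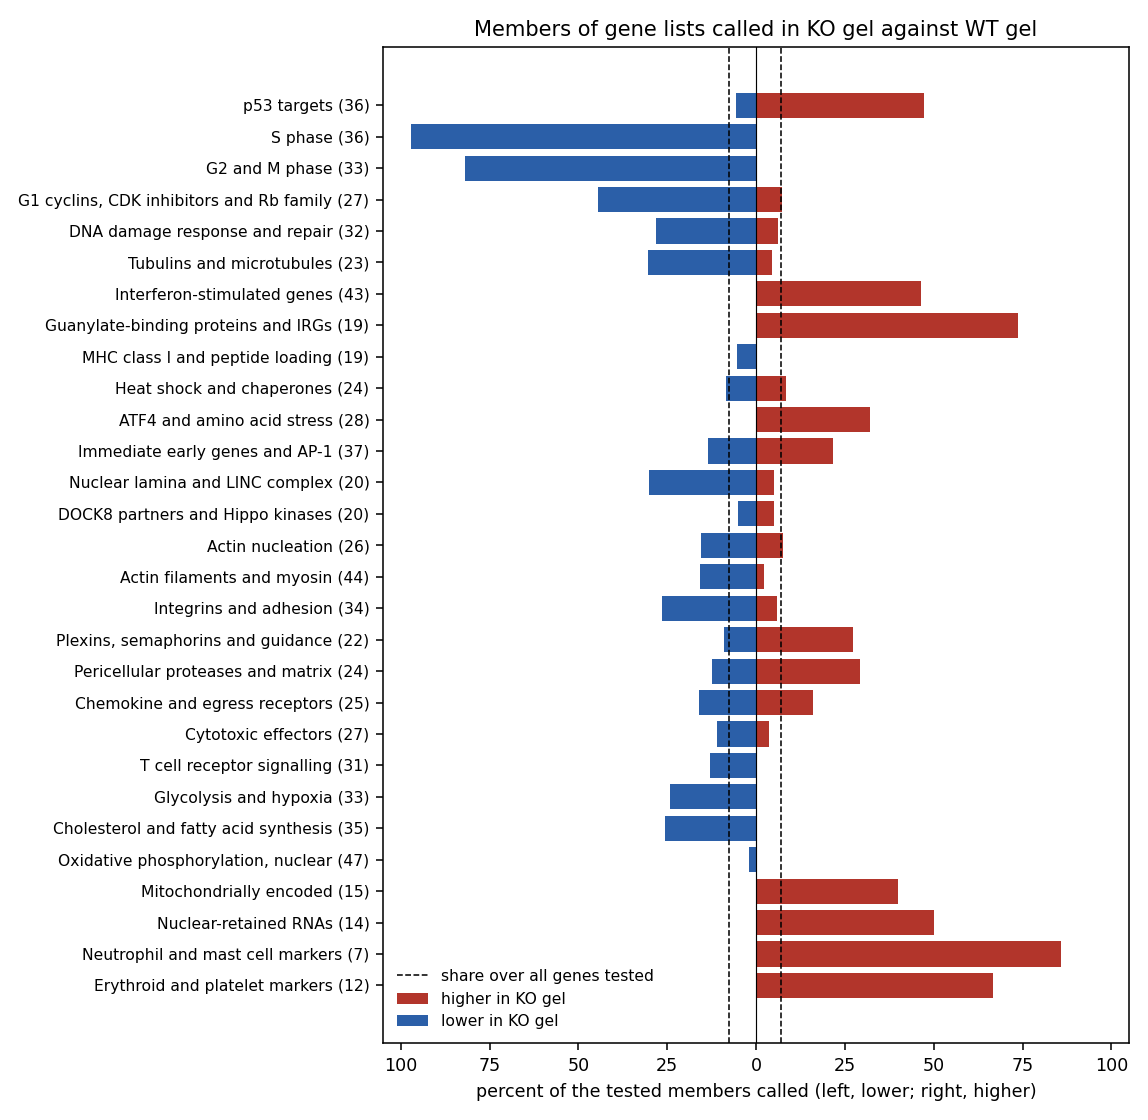
Percent of the tested members of 29 gene lists called higher (right, red) or lower (left, blue) in KO gel, with the number tested in parentheses; dashed lines mark the share over all 19010 genes, 7.12% higher and 7.71% lower. S phase and mitotic genes lie far to the left, guanylate-binding proteins, p53 targets and interferon-stimulated genes to the right, and the list of DOCK8 partners and Hippo kinases near the dashed lines.

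RNAs kept in the nucleus rose in 7 of 14 tested, with 0 lower (median 0.34). Neat1, the scaffold of paraspeckles, gave 159, 153 and 205 CPM in WT gel and 302, 324 and 276 in KO gel (log2 0.80, SE 0.13, adjusted p 0.00147). Kcnq1ot1, an imprinted antisense RNA, gave 81.4, 70.9 and 98.7 against 150.4, 165 and 148 CPM (log2 0.88, SE 0.18) and Pvt1, next to Myc, 19.1, 18.99 and 18.01 against 26.8, 29.1 and 27.1 (log2 0.57, SE 0.07). All 12 tested satellite-like models were higher. One of them, Gm10801, stood at 521, 96.3 and 205 CPM, against 10.3, 8.32 and 6.90 in WT gel, and KO gel library 1 carried the highest level. Without that library its log2 fold change was 4.14, against 5.01 with it.

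Markers of other cell types were measured in the same way. Of 19 neutrophil and mast cell markers 7 were tested, and 6 of these were higher in KO gel; their list summed to 6.55 to 9.17 CPM in WT gel and 14.2 to 21.2 in KO gel. Erythroid and platelet markers were higher in 8 of 12 tested (17 in the list; 8.52 to 11.4 CPM against 19.1 to 37.2), and macrophage and dendritic markers in 4 of 8 tested (20 in the list; 23.4 to 43.6 against 44.1 to 60.2). A gene that passed the filter only through its KO gel level had to differ, so these shares are descriptions. Without KO gel library 2 the counts of 6 and 4 became 3 and 2, and without WT gel library 2 the 4 became 2. Mpo, the myeloperoxidase of granulocyte precursors, stood at 0, 0.0398 and 0.0504 CPM in WT gel and 1.08, 1.22 and 1.17 in KO gel, and Gata2, a factor of blood progenitors and mast cells, at 0.0554, 0 and 0 and 0.475, 1.25 and 0.973. Itga2b, the platelet integrin αIIb, stood at 3.07, 2.63 and 2.997 and 7.15, 11.4 and 10.1 CPM (log2 1.71, SE 0.17, adjusted p 4.89e-05).

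Several defining genes of those cells were at or near 0. S100a8, S100a9 and C1qa had no count in any gel library. Lyz2 of macrophages was at 0.0502 CPM on average in WT gel and 0.244 in KO gel, and Hbb-bs of red cells at 0 and 0.309. Pf4 of platelets was higher, at 0.724 and 4.88 CPM on average. The part of other cells in the results was not tested. The MHC class II genes H2-Eb1 (0.526, 0.279 and 0.202 against 1.58, 3.05 and 1.90 CPM, log2 2.68) and Cd74 (1.97, 2.23 and 1.41 against 3.30, 3.40 and 4.14, log2 0.97) were higher. H2-Ab1, at 2.71 CPM on average in WT gel and 2.21 in KO gel, did not pass the test, and H2-Ob was lower (log2 −0.43). H2-Ab1 and H2-Ob were added after their values were seen. Genes of neurons and epithelia, listed as silent in T cells, were higher in 4 of 7 tested, of 24 in the list. The 4 became 2 without KO gel library 1 or 3 or WT gel library 2. The list summed to 5.47 to 6.62 CPM in WT gel and 7.99 to 10.4 in KO gel. Not all of it was silent, since Map2, Krt18 and Epcam averaged 1.90, 1.54 and 1.47 CPM in WT gel. In KO gel they averaged 2.11, 0.973 and 2.27. Markers of NK and γδ T cells gave 0 calls of 8 tested. Of 8 CD4 and regulatory T cell markers 1 was higher, Cd4, at 2.77, 2.43 and 1.97 CPM in WT gel and 3.85, 4.87 and 7.16 in KO gel. The other 7 were not called, and 3 lay below 0 (list median 0.03). Foxp3 averaged 1.92 CPM in WT gel, with 4.36 in library 3, and 0.469 in KO gel. Of 7 tested B cell markers (14 in the list) 1 was higher, Ebf1, at 0.195 and 0.716 CPM on average, and Pax5 had 0 counts in WT gel and 36 in KO gel. Most of the list went the other way, with 5 of the 7 below 0, 0 called lower and a median of −0.25. The list summed to 910 to 1080 CPM in WT gel and 757 to 831 in KO gel, with Ighm at 945 and 778 on average.

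In media the same genotypes differed in 36 genes (0.189%), 5 higher (0.0263%) and 31 lower (0.163%) in KO, and in 57 with the replicate number as a block (14 higher). Of these, 28 were called in gel too, all in the same direction (3 higher, 25 lower); they make up 77.8% of the media calls and 0.993% of the gel calls, and none of the 28 had a called difference between the cultures in the fit without pairs. Gel and media share no library but were fitted together, with 1 estimate of the spread. The difference between the cultures was called for 636 genes (3.35%), 360 with a higher (1.89%) and 276 with a lower (1.45%) genotype difference in gel. This count rested on single libraries, from 185 without WT media library 2 to 2011 without WT media library 1. It was 241, 280 and 276 without KO gel libraries 1, 2 and 3, 342 and 261 without WT gel libraries 1 and 2, 261 and 316 without KO media libraries 1 and 3, and 347 without WT media library 3. Without both WT gel library 2 and KO media library 3 it was 30, with 28 higher and 2 lower. Same-numbered media and gel libraries deviated together in WT (r = 0.786, 0.238 and 0.796) and less evenly in KO (−0.04, 0.20 and 0.174). With each such pair as a block, an alternative chosen after seeing the data, the difference was called for 3431 genes in edgeR (1552 higher, 1879 lower) and 2599 in limma-voom, and 618 and 636 of the 636 were among them. Of the 28 genes, 3 then had a called difference in either fit, Dock8, Art2b and Gprc5b.

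Genes that differed in both cultures included the 3 that were higher. Wdfy1, an adaptor of Toll-like receptor signalling, gave 14.3, 16.1 and 14.3 CPM in WT gel and 36.8, 37.2 and 35.3 in KO gel (log2 1.29, SE 0.08, and 1.39 in media). Rab4a, an endosomal GTPase, gave 3.02, 3.26 and 3.17 against 12.4, 10.7 and 11.3 CPM (log2 1.86, and 1.92 in media). Nnt, the mitochondrial transhydrogenase gene that is known to be broken in the C57BL/6J substrain, had a log2 fold change of 1.03 in gel and 1.23 in media. None of the 3 had a called difference between the cultures. Of 12 tested genes known to differ between mouse substrains 5 were higher and 2 lower in KO gel. Substrain differences between the WT and KO mice cannot be told apart from effects of Dock8 in these data.

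Among the 25 lower in both cultures, Erdr1 stood at 30.6, 30.3 and 28.2 CPM in WT gel and 0.369, 0.624 and 0.399 in KO gel (log2 −5.99, SE 0.18, and −6.30 in media). A cluster on chromosome 14 held Entpd4 (69337174 to 69367270; log2 −0.81), its near copy Entpd4b (69555424 to 69585520; −0.80), Gm16867 (−2.27) and the antisense model Gm27177, which was at 4.32, 4.14 and 3.98 CPM in WT gel and 0.0264, 0 and 0.0499 in KO gel. These models overlap or share sequence, so their counts are not independent; the 2 gene models were chosen after their values were seen. Rell1, a relative of the TNF receptor family protein RELT, had −0.74 in gel and −0.63 in media, and Synj2, a phosphoinositide phosphatase, −0.71 and −0.80. Bmf, a BH3-only death gene, had −0.70 and −0.71, and Nrn1, neuritin, −0.77 and −0.94. None lay within 10 Mb of Dock8 except Dock8 itself: of 49 genes tested within 5 Mb, 12 were called in gel (24.5%, against 14.8% of all genes) and 0 in media (against 0.189%), and within 10 Mb 18 of 90 and 0.

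Of the 8 genes called in media and not in gel, Ccr2 and Hmgn5 are described. Ccr2, the receptor that brings cells to inflamed tissue, was higher in KO media (175, 166 and 143 CPM in WT, 228, 274 and 269 in KO; log2 0.67, SE 0.09, adjusted p 0.00325) but stood at 166, 183 and 155 in WT gel and 172, 183 and 179.6 in KO gel (0.08, adjusted p 0.581). The difference between the cultures was called (−0.59, adjusted p 0.0269). Hmgn5, a nucleosome-binding protein, had 0.33 in media (adjusted p 0.0272) and −0.09 in gel (adjusted p 0.345).

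**Figure D5:**
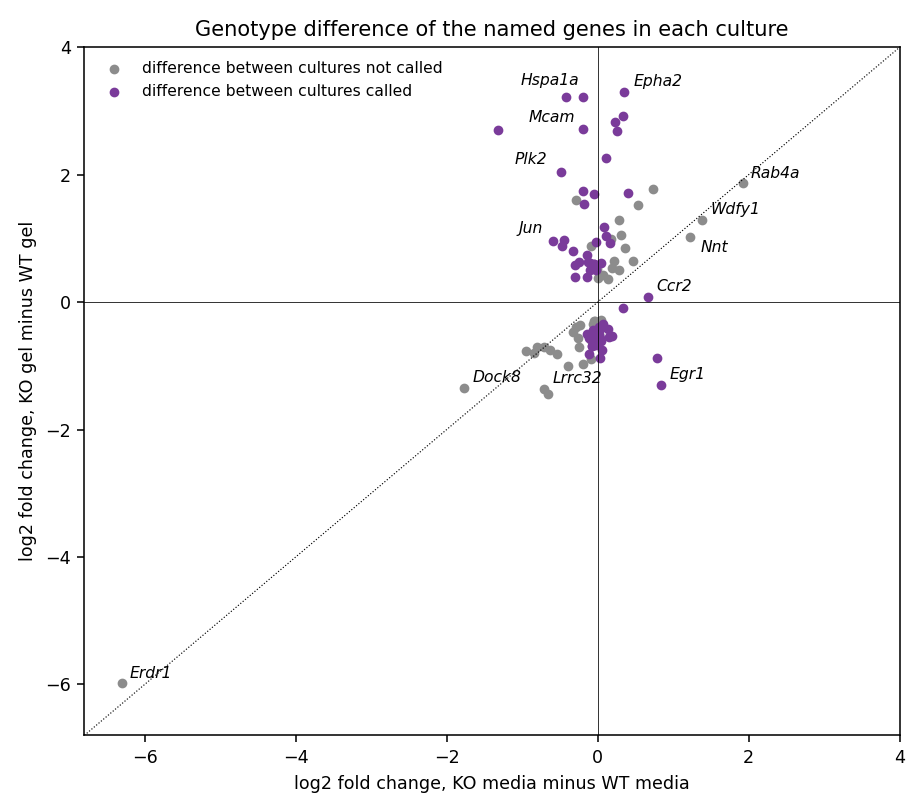
Log2 fold change of KO against WT in media (horizontal) and in gel (vertical) for 112 genes named in the text; genes with a mean below 0.2 CPM in a WT group and predicted gene models are left out, and the dotted line marks equal differences. Purple points (68) have a called difference between the cultures and gray points (44) do not. Dock8, Erdr1, Wdfy1, Rab4a and Nnt lie near the line, and Mcam, Hspa1a and Epha2 lie high with media values nearer to 0.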

How the data were processed

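Each library is ribosomal RNA-depleted total RNA of activated CD8+ T cells, per the labels' protocols. The authors deposited raw counts per gene symbol, 1 column per library. The submitters' processing notes name HISAT2 and featureCounts, with FastQC, MultiQC, Picard and SAMtools, and the build GRCm38 (mm10). Tool versions, annotation release, strand setting and duplicate handling were not stated, so antisense and overlapping genes may share reads. The 12 libraries held 28483064 to 61390702 counts on genes.

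Of 55291 symbols, 19010 passed filterByExpr and were tested with edgeR 4.0.16 in R 4.3.3, with TMM scaling, a robust quasi-likelihood fit over the 4 groups, and Benjamini-Hochberg adjustment (threshold 0.05). The filtered genes held 0.0437 to 0.104% of counts. A gene that passed the filter only through its KO gel level had to differ. Positions are from GENCODE M21 (96.4% of symbols matched) and promoters from the RefSeq table of GRCm38.p6. In simulated data only genes with a mean gel level of at least 3 on the log2 CPM scale were changed. Of these changes 94% of 1.5-fold and 100% of 2-fold ones were called, with 9 false calls among 205, over 18799 genes. Recovery of changes at lower levels was not tested.

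The comparison, gene lists and rule for named genes were chosen with earlier results of these data known. Named genes are Dock8, the 10 largest rises and falls at a mean log2 CPM of at least 3 with no overlap, the 5 rises and 5 falls of lowest p, and as many as 4 genes of every list by p. In media these numbers were 5 and 2. One gene list and the genes chosen from it are not reported here. Histones, genes of ribosomal proteins, pseudogenes, receptor segments and predicted models were left out of the choices by size and by p. Groups have n = 3, and p-values measure the spread between these samples. Alternatives were DESeq2 1.42.0, limma 3.58.1 (voom), other scalings and filters, a replicate block, fewer groups in the fit, each library left out and, added after seeing the data, the media and gel libraries of one genotype and number as a block.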

Additional observations from a re-analysis of the deposited data

Results flagged for a closer look

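For the genes below the genotype difference differed between the cultures, by the edgeR test of the difference in gel minus the difference in media. Each value is that difference on the log2 scale, so that a positive one stands for a genotype difference that was higher in gel. Of all 19010 tested genes, 3.35% passed this test, and the count rests on single libraries and on scaling. Without WT gel library 2 and KO media library 3 only 30 of all tested genes passed, 28 higher and 2 lower. With total counts 458 were higher and 24 lower. Which of the genes below were among them is not given here. With media and gel libraries of one genotype and number as a block in edgeR, 70 of the 71 genes passed, and the adjusted p of Gm10801 was 0.0545.

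Among p53 targets the excess in gel was 2.53 for Plk2, 5.16 for Ddit4l (a value that rests on a few counts outside KO gel and is no bound), 2.58 for Eda2r, 0.65 for Ercc5, 0.53 for Mdm2 and 0.57 for Pmaip1. In genes of DNA replication the values were −0.65 for Cdc6, −0.65 for Tk1, −0.46 for Ccne1, −0.49 for Prim1, −0.50 for Mcm5, −0.72 for Mcm6 and −0.71 for Tcf19. Regulators of the cell cycle and of mitosis had −0.45 for Aurkb, −0.36 for Birc5, −0.37 for Cdk1, −0.51 for Cdk2, −0.54 for E2f1, −0.44 for E2f3 and −0.61 for Cdca5. Tubulin and repair genes had −0.56 for Tubb5, −0.66 for Tuba1b and −0.48 for Fancd2. For interferon-induced genes the difference was 1.75 for Ifit1, 0.77 for Mx1, 0.88 for Ifit1bl1, 0.87 for Gbp2, 0.71 for Gbp5, 0.66 for Gbp7 and 0.88 for Cd274. MHC class II genes and the NF-κB brake gave 2.15 for Ciita, 2.42 for H2-Eb1, 1.41 for Cd74 and 0.69 for Tnfaip3. Chaperone and stress genes gave 3.42 for Hspa1a, 3.64 for Hspa1b, −0.53 for Hspa8, −0.70 for Hsp90ab1, 0.76 for Ddit3, 0.61 for Ern1 and −0.90 for Prdx4.

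Immediate early genes ran in opposite directions, at 1.55 for Jun, −2.15 for Egr1 and −1.66 for Egr2. In the nuclear envelope the values were −0.60 for Nrm and −0.44 for Lmnb2. For adhesion, guidance, matrix and actin bundling they were 2.90 for Mcam, 0.53 for Icam1, 2.95 for Epha2, 1.93 for Efnb2, 2.60 for Robo3, 1.10 for Plxna1, 3.34 for Fn1, −0.41 for Adam19 and 4.03 for Fscn1. In signalling and function of T cells they were 0.93 for Rgs1, −0.41 for Cxcr4, −0.57 for Nkg7, 1.72 for Csf1 and −0.56 for Cd160. Among metabolic genes and an arrestin-like adaptor they were −0.64 for Fads1, −0.82 for Scd2, −0.59 for Slc2a1 and 0.97 for Arrdc3. Nuclear RNAs, a satellite-like model and a platelet integrin gave 1.13 for Neat1, 1.35 for Kcnq1ot1, 0.61 for Pvt1, 4.83 for Gm10801 and 1.30 for Itga2b. Only a genotype difference in media was called for Ccr2 (−0.59) and Hmgn5 (−0.42). Satellite-like models, olfactory receptor genes and silent genes were also higher in KO gel than in the other groups, and their part in these differences was not tested.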

How the results depend on the processing

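In gel 2819 genes were called, and 1609 to 3893 with each of the 12 libraries left out (higher 833 to 1888, lower 776 to 2005). The range was 23 to 70 in media (higher 4 to 11, lower 19 to 59), where KO media library 2 gave 23 and WT media library 1 gave 70, and 185 to 2011 for the difference between the cultures (higher 118 to 1054, lower 67 to 957). With total counts as the scaling 407 genes were lower in gel and 24 in the difference, and the lower members became 8 in G2 and M phase, 4 in G1, 2 in the lamina, 1 in actin filaments and 3 in integrins; Hmgn5, which was not called in gel, changed sign to 0.01887. Without WT gel library 2 and KO media library 3, the libraries rich in ribosomal RNA-like loci, 1444 genes were called in gel (754 higher, 690 lower), 19 in media (3 and 16) and 30 in the difference (28 and 2), with 11 interferon-stimulated genes higher and 5 G1, 2 actin filament and 2 integrin genes lower. With only genes at a mean log2 CPM of at least 3 the counts were 1493 (768 and 725), 15 (11 lower) and 244 (121 and 123), with 11 interferon-stimulated and 5 immediate early genes higher and 5 G1, 3 actin filament and 5 integrin genes lower. With no filter beyond 1 count 2123 genes were higher in gel, and media gave 435 (178 and 257) and the difference 1768 (983 and 785). DESeq2 called 75 in media (20 and 55) and 1096 in the difference (579 lower). Fitting the 6 media libraries alone gave 19 lower in media. Over the genes each one fitted, the median log2 fold change in gel was 0.188 in DESeq2 and 0.161 with no filter. The cause of these shifts was not tested.

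Between the genotypes the same-numbered gel libraries had correlations of −0.454, 0.151 and 0.142 between their deviations, not all over 0.1, and the media libraries 0.214, 0.17 and 0.382. A fit with the replicate block gave 1677 higher and 1917 lower in gel, 57 in media (14 higher) and 962 in the difference (483 lower), with 10 lamina genes lower. With media and gel libraries of one genotype and number as a block, chosen after seeing the data, the difference between the cultures was called for 3431 genes in edgeR (1552 higher, 1879 lower) and for 2599 in limma-voom (1330 and 1269), where gel gave 2649 and media 35.

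Lists ranged, over the 12 libraries left out, from 15 to 18 for p53 targets, 30 to 36 for S phase, 20 to 27 for G2 and M phase, 5 to 12 for G1, 9 to 22 for interferon-stimulated genes, 11 to 18 for guanylate-binding proteins, 5 to 9 for ATF4, 4 to 10 for the lamina, 3 to 9 for actin filaments, 4 to 10 for integrins and 7 to 8 for higher immediate early genes. Of 120 named genes checked in each setting 118 were called in gel, and 114 of these were called with each library left out. With total counts 9 were not called, and 8 were not without both libraries rich in ribosomal RNA-like loci. Other genes named above were not in this check, among them Trp53, Ddb2, Cgas, Cd4, Ebf1, H2-Ob, Art2b and Gprc5b. Depth limits the scarce genes, where a few counts set a value.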
